A study of Mus musculus with 9 samples.

Results

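The GABA-A receptor subunit genes described here are Gabra2, Gabra3, Gabra5, Gabrb1, Gabrb2, Gabrg1 and Gabrg3, which encode 3 alpha, 2 beta and 2 gamma subunits. They were measured by 16 of the 41174 probes on the array, found by gene name, and every one of these probes is reported. Of the 16, 13 carried the current symbol and 3 an older one (C030002O17Rik on a pair of probes now assigned to Gabrb2, B230362M20Rik on a probe now assigned to Gabrg3). RNA came from L3/L4 dorsal root ganglia (DRG) of adult mice, 4 uninjured samples (treatment control) and 5 samples collected 3 days after transection of the sciatic nerve (treatment lesion). Every sample of both groups carries the labels cre.neg and jun.wt, so the groups share this genotype. The source label of the control samples also mentions transection. In one place the study's text gives a shorter time and names only L4 ganglia. No label gives the exact age or ties a sample to an animal. Whether the uninjured ganglia came from the opposite side of injured mice is not given for the arrays in the sources used here, so both groups may share animals, the samples were compared as unpaired, and p-values measure the spread between these samples, which may be technical. Each array set DRG RNA, in the Cy5 dye, against a universal mouse reference in the Cy3 dye, without a dye swap, and values are given as the log2 ratio of DRG to reference.

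GABA-A receptors are chloride channels opened by GABA, most often assembled from alpha, beta and gamma subunits. GABA binds between alpha and beta subunits, and benzodiazepines bind between alpha and gamma subunits. Sensory neurons of the DRG keep a high internal chloride concentration, so GABA depolarizes them, and the receptors on their central terminals in the spinal cord are known for presynaptic inhibition.

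The arrays lay on 3 slides. Slide 1 held uninjured replicates 2, 3 and 4, slide 2 held uninjured replicate 1 with injured replicates 1, 2 and 5, and slide 3 held injured replicates 3 and 4, so that slide and injury overlapped in large part. The median Cy5 signal was between 156 and 238 per array, and the share of spots with Cy5 above background lay between 71.0% and 78.9%. All 13 listed sensory neuron markers were measurable, with 2 lower in injured DRG and a median log2 change of −0.05. An unadjusted limma p under 0.05 was found for 4 of them (Scn9a, Isl1, Snap25 and Scn10a), each lower in injured DRG. All 5 markers of injured sensory neurons rose, by 1.76 to 5.14 on the log2 scale, on the arrays labelled as injured. Injured replicates 2 and 4 stood apart in 6 skeletal muscle markers, with a mean level 1.49 and 3.37 above the uninjured mean, against −0.16 to 0.27 on the other injured arrays, and results are therefore also given without those 2 arrays. Macrophage markers had a median change of 0.61 (0.26 to 0.90), and 2 of 8 passed the test, with 6 at an unadjusted limma p under 0.05. Their mean level was highest on injured replicates 2 and 5 (1.01 and 1.04, against 0.10 to 0.48 on the other injured arrays). Red blood cell markers were also highest there (1.19 and 1.22, against −0.15 to 0.49), and no fit left out both of these arrays. Satellite glial markers had 2 of 6 higher, and none of 6 myelinating Schwann cell, 6 skeletal muscle, 3 red blood cell and 5 fibroblast and vessel markers passed limma's test, with 2, 1, 2 and 1 at an unadjusted p under 0.05. Of the 4 markers listed for central nervous tissue, 2 were measurable. Gfap was higher (1.08) and Slc17a7 was not called (0.003), while Olig2 and Neurod6 were too dim to be tested. Which cells gave the Gfap signal was not tested.

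To ask which subunits responded to injury, groups were compared probe by probe with limma across the 31186 probes whose Cy5 signal exceeded background on 4 or more arrays, with Benjamini-Hochberg adjustment over all of them and an adjusted p under 0.05 taken as a call. Probes of all 7 genes entered the test, 13 in all. Probes of Gabrb2 and Gabra2 were lower in injured DRG (4 probes), 1 probe of Gabra5 was higher, and 8 probes were not called. Across all probes 23.5% were called, 13% as lower and 10.5% as higher. Without the probes known by an older symbol, 10 probes were tested, with 2 lower and 1 higher. The 5 calls fell to 3 without uninjured replicate 1, without uninjured replicate 3, or without both arrays with raised muscle markers. In a whole ganglion, fewer cells of a type and less RNA per cell cannot be told apart. The groups of arrays did not overlap for 3 of the 13 probes with injured below and for 1 with injured above, against 12.5% and 10.1% of all probes. The median change over the 7 genes, each by its brightest probe, was −0.14, beside 0.001 over all genes.

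**Figure D1:**
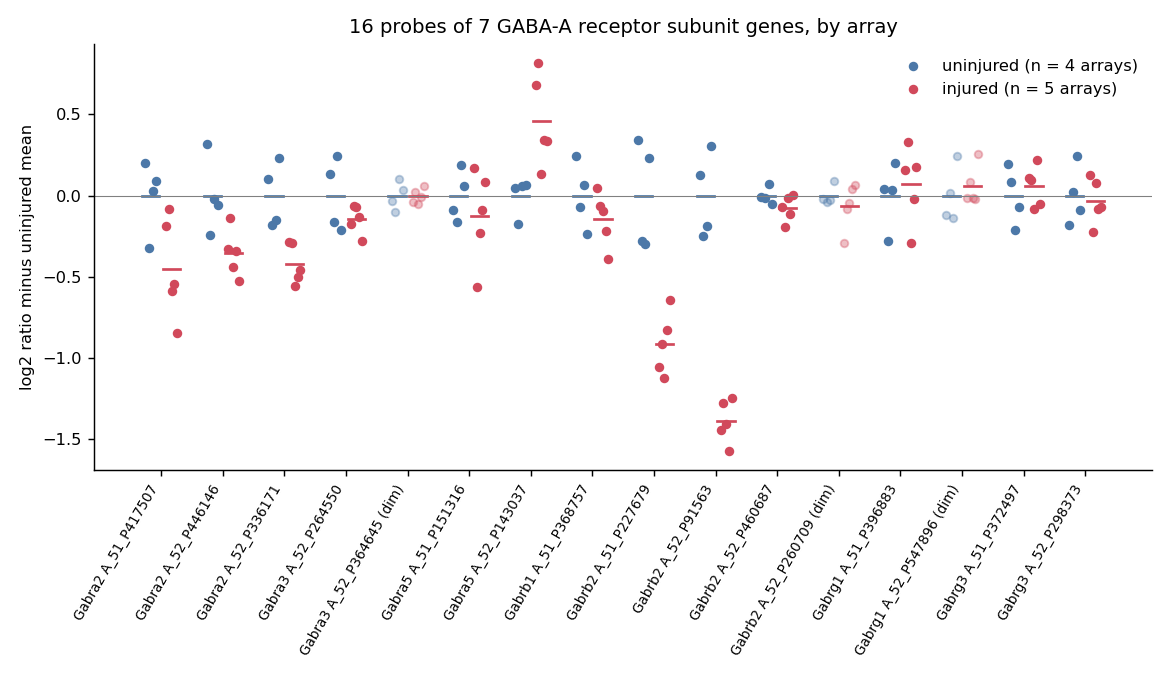
Log2 ratio (Cy5 over Cy3) of each of the 16 probes on each array, minus the mean of the 4 uninjured arrays of that probe; blue points are uninjured and red points injured arrays, lines are group means, and pale points are the 3 probes too dim to be tested. The injured arrays of the Gabrb2 probe A_52_P91563 lie 1.00 or more below every uninjured array, while most other probes overlap.

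Gabrb2 encodes a beta subunit, part of the site where GABA binds, and carried the largest change of the 7 genes. The probe A_52_P91563, on the plus strand at chr11:42587269-42587328 of build mm7, read 4.38, 4.0, 4.06 and 4.55 on uninjured arrays and 2.80, 2.97, 2.84, 2.68 and 3.0 on injured arrays. All 5 injured arrays were below all 4 uninjured arrays, by a gap of 1.00. The log2 change was −1.39 (SE 0.117, n = 4 and 5), or 0.382 of the uninjured ratio, with a limma adjusted p of 1.84e-05. Permuting the arrays in every way between the groups (exact, two-sided) gave p = 0.00794, the smallest this design allows. In the DRG channel alone, signal minus local background was between 1471 and 2029 in uninjured and between 501 and 754 in injured samples. The reference channel was not above background on any array at this probe, so its ratio follows the Cy5 signal. This call held under all 23 alternatives run for it, with changes between −1.76 and −0.98. Among these, a slide block and slide 2 alone share 1 estimate, and other filters leave the estimate as it was. Without the 2 arrays with raised muscle markers the change was −1.37.

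A second Gabrb2 probe, A_51_P227679, lies 1.764 kb further along the same strand (chr11:42589033-42589092, mm7). Its log2 ratios were 4.42, 3.80, 3.78 and 4.30 on uninjured arrays and 3.02, 3.16, 2.95, 3.24 and 3.43 on injured arrays. The groups again did not overlap. The change was −0.91 (SE 0.150, n = 4 and 5; limma adjusted p = 0.00145). The reference signal at this probe moved with the groups as well, from between 24.02 and 30.1 above local background on uninjured arrays to between 5.66 and 16.5 on injured arrays. A lower reference signal by itself raises the ratio of DRG to reference, and its part here was not tested. With the Cy5 channel alone the change was −1.09, and with Agilent's own ratio, which uses another background model, it was −0.05 and was not called (adjusted p = 0.941).

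The remaining Gabrb2 probes, which carry the current symbol in the files, were dim. A_52_P460687 (chr11:42585445-42585504, mm7), 1.824 kb before A_52_P91563, was above background on 4 uninjured arrays and 1 injured array, and so passed the filter only through the uninjured group. Its ratios were 0.35, 0.34, 0.42 and 0.30 in uninjured and 0.28, 0.16, 0.34, 0.24 and 0.35 in injured DRG. The groups overlapped and the difference was −0.08 (SE 0.061, adjusted p = 0.397). It was −0.28 and called without background correction (adjusted p = 0.00921), and −1.0 with Agilent's ratio, not called (adjusted p = 0.116), so its size depends on how background is handled. A_52_P260709 (chr11:42487971-42488030, mm7) was not above background on any array. Both strong Gabrb2 probes are thus those assigned through the older symbol C030002O17Rik, and the position of the 4 probes within the transcript was not analysed here. Beside the Gabrb2 values, the mean level of the 13 sensory neuron markers was −0.11 to 0.12 on uninjured and −0.30 to 0.11 on injured arrays, centred on the uninjured mean. Single markers changed unequally, from −0.54 (Scn9a) to 0.16 (Prph). The part of neuron content in the Gabrb2 change was not tested.

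**Figure D2:**
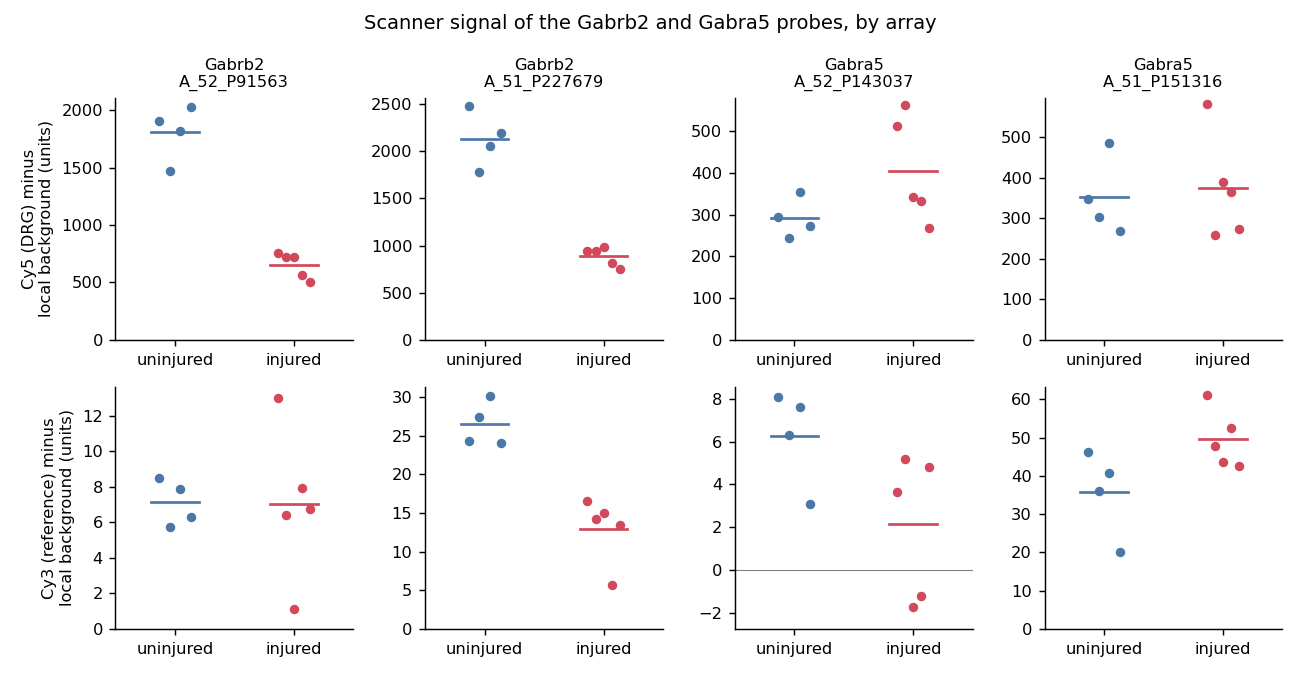
Scanner signal (spot mean minus median local background, arbitrary units) of 2 Gabrb2 and 2 Gabra5 probes on each array, with the DRG sample (Cy5) above and the reference (Cy3) below; lines are group means. The Cy5 signal of both Gabrb2 probes is lower on every injured array, and the Cy3 signal of A_51_P227679 is lower on injured arrays too.

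Gabra2 encodes an alpha subunit and was measured by 3 probes within 2.771 kb on the minus strand of chromosome 5. They are no replicates of each other, and whether they read the same transcript was not analysed here. A_52_P336171 (chr5:70330565-70330624, mm7) read 3.86, 3.58, 3.61 and 3.99 on uninjured arrays and 3.47, 3.47, 3.20, 3.26 and 3.30 on injured arrays. Its groups did not overlap, with a change of −0.42 (SE 0.100, n = 4 and 5; limma adjusted p = 0.0118). A_52_P446146 (chr5:70331375-70331434, mm7) read 4.20, 3.64, 3.86 and 3.82 in uninjured and 3.55, 3.74, 3.43, 3.53 and 3.35 in injured DRG. Injured replicate 2 lay above uninjured replicate 2 here, and the change was −0.36 (SE 0.113, adjusted p = 0.0427). A_51_P417507 (chr5:70333336-70333395, mm7) read 4.67, 4.15, 4.50 and 4.56 in uninjured and 4.29, 4.39, 3.88, 3.93 and 3.62 in injured DRG. This probe had a change of −0.45 (SE 0.159) and missed the threshold (adjusted p = 0.0648). The call of A_52_P336171 held without any single array (highest adjusted p = 0.0418) but was lost with a normexp offset of 0 (−0.17, adjusted p = 0.578) and with no flagged spot left out (−0.65, adjusted p = 0.0553). The call of A_52_P446146 held under 7 of 23 alternatives. It was lost with Agilent's ratio (−0.21, adjusted p = 0.237), median centring (−0.40, adjusted p = 0.106) and an offset of 0 (−0.35, adjusted p = 0.0580). The same was seen without background correction (−0.33, adjusted p = 0.0530) and with the authors' values (−0.35, adjusted p = 0.0576). It was also lost without uninjured replicate 1, 3 or 4 or injured replicate 1, 3, 4 or 5 (−0.25 to −0.38). Without both arrays with raised muscle markers it was lost as well (−0.43, adjusted p = 0.0583). A_51_P417507 passed the threshold without uninjured replicate 2 (−0.56) or injured replicate 1 (−0.52) or 2 (−0.54), and the average of the 3 probes was called as well (−0.41, adjusted p = 0.0228).

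Gabra5, whose alpha subunit is known mainly from receptors outside synapses, gave unlike results at 2 probes 81.23 kb apart. A_52_P143037 (minus strand, chr7:53650609-53650668, mm7) read 1.91, 1.69, 1.93 and 1.93 in uninjured and 2.54, 2.68, 2.0, 2.21 and 2.20 in injured DRG. The lowest injured array lay 0.07 above the highest uninjured array, and the change was 0.46 (SE 0.130, n = 4 and 5; limma adjusted p = 0.0258; two-sided exact permutation p = 0.0159). The reference channel was not above background at this probe on any array, and the Cy5 signal minus local background overlapped between the groups (244 to 354 and 268 to 564). With normalized Cy5 alone the change was 0.42 and was called (adjusted p = 0.00991), and with an offset of 0 it was 0.96 and was called (adjusted p = 0.00552). Its call was lost without uninjured replicate 1 (0.48, adjusted p = 0.0543), uninjured replicate 2 (0.40, adjusted p = 0.0721), uninjured replicate 3 (0.48, adjusted p = 0.0501) or injured replicate 1 (0.41, adjusted p = 0.0519), and without both arrays with raised muscle markers (0.38, adjusted p = 0.0897). When no flagged spot was left out on the arrays, the change was 0.24 and was not called. No value of this probe itself had been left out, so only the array-wide background correction and normalization differed. A_51_P151316 (minus strand, chr7:53731839-53731898, mm7) read 1.39, 1.32, 1.66 and 1.54 in uninjured and 1.65, 0.92, 1.25, 1.39 and 1.56 in injured DRG. The groups overlapped, with a change of −0.12 (SE 0.139, adjusted p = 0.574, 95% interval −0.43 to 0.18).

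The other alpha and beta genes showed no call. Gabra3, an X-linked alpha subunit gene, was read by A_52_P264550 (minus strand, chrX:67820467-67820526, mm7) at 1.02, 0.72, 1.13 and 0.68 in uninjured and 0.71, 0.83, 0.82, 0.75 and 0.61 in injured DRG. The difference was −0.14 (SE 0.099, adjusted p = 0.336, 95% interval −0.36 to 0.07). With Cy5 alone it was −0.41 and was called (adjusted p = 0.0033). The other Gabra3 probe, A_52_P364645, was above background on 1 uninjured and 1 injured array and was not tested. Gabrb1, the other beta subunit gene, had 1 probe (A_51_P368757, plus strand, chr5:71507288-71507347, mm7). It read 2.25, 1.94, 2.07 and 1.77 in uninjured and 2.06, 1.95, 1.91, 1.79 and 1.62 in injured DRG. These overlap, with a difference of −0.14 (SE 0.110, adjusted p = 0.393, 95% interval −0.39 to 0.10).

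Gamma subunits form part of the benzodiazepine site, and neither gamma gene of the 7 was called. The Gabrg1 probe A_51_P396883 (minus strand, chr5:70123722-70123781, mm7) was printed in 10 spots on every array, whose ratios had an SD between 0.097 and 0.166 within an array. It read 5.49, 5.17, 5.48 and 5.64 in uninjured and 5.60, 5.77, 5.15, 5.42 and 5.62 in injured DRG. The spread between arrays of a group (SD 0.20 and 0.24) was larger than that between spots, the groups overlapped, and the difference was 0.07 (SE 0.130, adjusted p = 0.752). Its 95% interval was −0.22 to 0.36, so a change of the size seen at either strong Gabrb2 probe lay outside it. A_52_P547896, the other Gabrg1 probe, was not above background on any array. Gabrg3 was near background at both of its probes, which lie 453.798 kb apart on the minus strand of chromosome 7. A_51_P372497 had a difference of 0.06 (adjusted p = 0.716) with values from −0.30 to 0.13, and A_52_P298373, named through the older symbol, had one of −0.03 (adjusted p = 0.846) with values from −0.05 to 0.42.

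Whether subunits of one class changed unequally was tested on the difference between both genes' log2 ratios per array, for 5 pairs by the brightest probe of each gene. The change of Gabrb1 and that of Gabrb2 differed by 0.77 on the log2 scale, with the more negative value at Gabrb2. The two-sided exact permutation test gave p = 0.0238, and 0.119 after adjustment over the 5 pairs. Gabra2 against Gabra3 (−0.31, permutation p = 0.111), Gabra2 against Gabra5 (−0.33, permutation p = 0.254), Gabra3 against Gabra5 (−0.02, permutation p = 0.937) and Gabrg1 against Gabrg3 (0.01, permutation p = 0.960) did not pass either. Unequal change within a class was therefore not shown for any pair by these probes, and missing the threshold does not show that the members of a pair changed alike.

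Slide could be separated from injury only through slide 2. With slide as a fixed block, both strong Gabrb2 probes stayed called, at −1.45 (adjusted p = 0.00704) for A_52_P91563 and −1.22 (adjusted p = 0.0257) for A_51_P227679. The Gabra2 probes kept their direction (−0.57, −0.65 and −0.45) without a call, and so did the Gabra5 probe A_52_P143037 (0.56). Gabra4 (−0.94), another subunit gene described next, also stayed called with the fixed block, and Gabrd (−0.39) did not. A random block instead models a correlation between arrays of a slide, here −0.20. With it 10340 of all probes were called, against 7338 in the comparison without slide, so a call kept here is no check against slide. A_52_P336171 (−0.38, limma adjusted p = 0.00642) and A_52_P143037 (0.49, adjusted p = 0.00878) stayed called. A_51_P417507 was called as well (−0.39, adjusted p = 0.0455), and A_52_P446146 was not (−0.27, adjusted p = 0.0582). Slide 2 alone gives the same estimates as the fixed block and is no separate support. In it, with 1 uninjured array assumed to vary like the others, A_52_P91563 was called (adjusted p = 0.0431) and A_51_P227679 was not (adjusted p = 0.0926), nor was Gabra4 (adjusted p = 0.0795). Under the fixed block 1508 of all probes were called, and within slide 2 only 134.

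**Figure D3:**
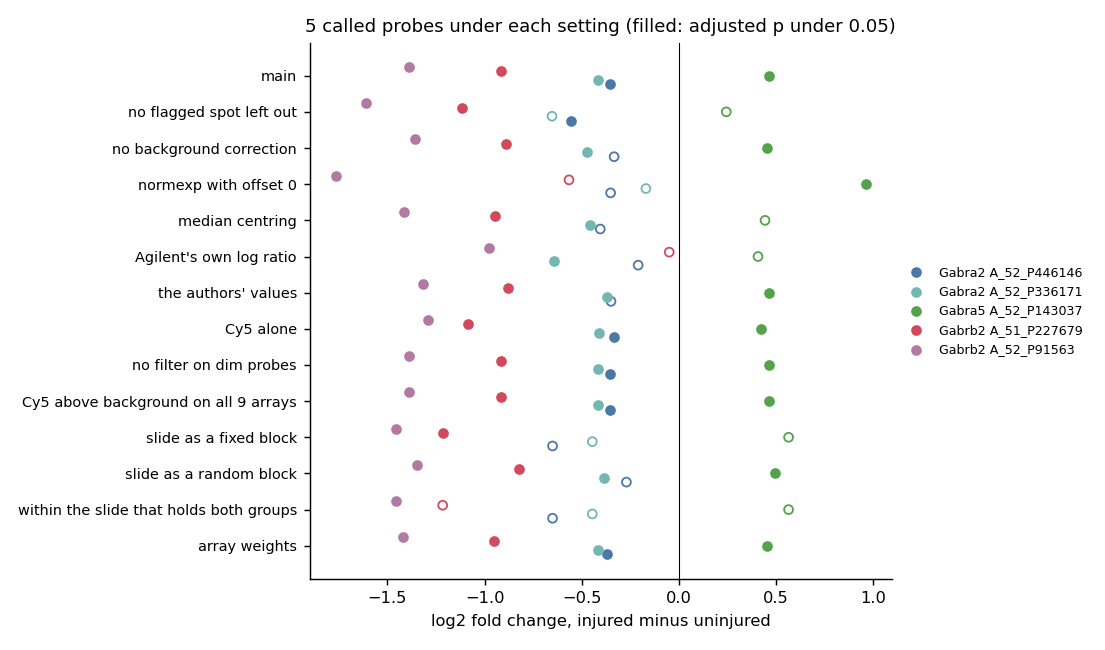
Log2 fold change (injured minus uninjured) of the 5 called probes under each processing setting; filled points have an adjusted p under 0.05 and open points do not. The Gabrb2 probe A_52_P91563 is filled in every setting shown. The Gabra2 and Gabra5 probes are open with slide as a fixed block. With slide as a random block, A_52_P336171 and A_52_P143037 are filled and A_52_P446146 is open.

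Among other ionotropic GABA receptor subunits, Gabra4, an alpha subunit gene, changed by −0.69 (SE 0.0928, limma adjusted p = 0.000414), and its groups of arrays did not overlap. It was called without each single array and with Agilent's own ratio (−1.97). Gabrd (−0.48, SE 0.159, adjusted p = 0.0489), a subunit of receptors outside synapses, was closer to the threshold and was called under 10 of 25 alternatives. Of the fits that leave out 1 array, the one without injured replicate 5 called it and the others did not (−0.35 to −0.55). Gabrp (−0.05) and Gabrr1 (0.09) were not called.

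**Figure D4:**
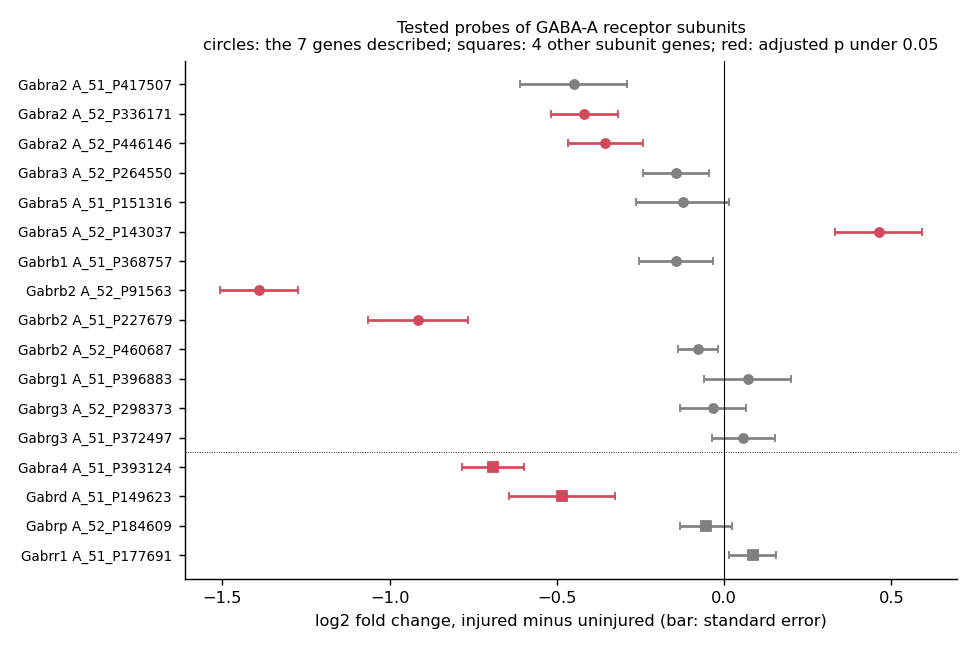
Log2 fold change (injured minus uninjured, 5 and 4 arrays) with its standard error, by probe; circles are the 7 genes described, squares the subunit genes Gabra4, Gabrd, Gabrp and Gabrr1, and red marks an adjusted p under 0.05. The Gabrb2 probes A_52_P91563 (−1.39) and A_51_P227679 (−0.91) lie farthest to the left, and A_52_P460687 was near background in injured DRG.

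In a wider list of 43 other genes of GABA signalling (12 subunits included), 37 were tested, with 10 lower, 4 higher and 23 not called, and a median change of −0.04. Over all genes by their brightest probe 24.9% were called, 13.7% lower and 11.2% higher. Among the genes for receptor clustering and trafficking, Gphn, the scaffold protein gephyrin, was lower (−0.32, adjusted p = 0.0447). Plcl1 was lower (−0.28) and its relative Plcl2, both known to bind the receptor, was higher (0.52). Trak1, a kinesin adaptor, was lower (−0.29). Gabarap, which binds gamma subunits, was higher (0.26), as were Zdhhc3, a palmitoylating enzyme (0.31), and Nlgn2, an adhesion protein of inhibitory synapses (0.36). Of the genes for GABA synthesis and breakdown, Abat, GABA transaminase, was lower (−0.38, adjusted p = 0.00421). An unadjusted limma p under 0.05 was found for all 3 genes tested in this group, each lower in injured DRG. The same held for 13 of the 17 clustering and trafficking genes, in both directions. Neither GABA-B receptor gene, none of 5 GABA transporter genes and neither chloride transporter gene (Slc12a2 at −0.17, Slc12a5 at −0.04) was called by limma, and 0 of these 9 genes had an unadjusted p under 0.05. The 23 genes that were not called changed by −0.32 to 0.32. With slide as a fixed block, Nlgn2 stayed called (0.69, adjusted p = 0.0290), and Abat (−0.53, adjusted p = 0.0583), Plcl2 (0.49, adjusted p = 0.0538), Gabarap, Trak1, Gphn, Plcl1 and Zdhhc3 (adjusted p from 0.156 to 0.722) were not called. With probes averaged, Abat (−0.16) and Trak1 (−0.16) were not called, nor was Gphn (−0.16). Without single arrays Abat, Gabarap, Plcl2 and Trak1 kept their calls, whereas Plcl1 lost its call without uninjured replicate 1, 3 or 4 (−0.26 to −0.27), Gphn without any but uninjured replicate 2 or injured replicate 3 (−0.26 to −0.34), Zdhhc3 without any but uninjured replicate 1 or injured replicates 1 and 5 (0.27 to 0.32), and Nlgn2 without any but uninjured replicate 2 or injured replicates 3 and 4 (0.29 to 0.38). The count of 14 fell to 9 without uninjured replicate 1, 3 or 4 or injured replicate 2, and to 7 without both arrays with raised muscle markers.

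The genes whose values over the 9 arrays were most like those of the Gabrb2 probe A_52_P91563, out of 26579 candidate probes, were Esrrg, an orphan nuclear receptor (root mean square difference of centred log2 ratios 0.130), Onecut1, a homeobox factor (0.133), Kndc1 (0.153), 6430571L13Rik (0.162) and Olfm3 (0.171). For scale, the Gabrb2 probe itself ranged over 1.88 between its lowest and highest array. Each of the 5 was lower in injured DRG, by −1.22 for Esrrg to −1.43 for 6430571L13Rik, and the likeness is a description over 9 arrays that includes the step between the groups.

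The promoter windows of the 3 genes with a called probe are shown to set the sequence context beside the changes. They run from 250 bases before to 50 bases after the start of transcription in RefSeq on GRCm38.p6, and capitals mark TATAAA where it occurs.
Gabrb2, first of 3 windows (chr11:42420190-42420489, plus strand): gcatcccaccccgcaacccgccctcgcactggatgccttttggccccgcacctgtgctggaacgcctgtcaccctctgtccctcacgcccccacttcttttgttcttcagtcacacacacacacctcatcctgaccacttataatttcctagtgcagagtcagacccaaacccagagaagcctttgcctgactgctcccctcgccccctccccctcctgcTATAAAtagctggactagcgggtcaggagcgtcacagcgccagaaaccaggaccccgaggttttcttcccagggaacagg
Gabra2 (chr5:71095800-71096099, minus strand): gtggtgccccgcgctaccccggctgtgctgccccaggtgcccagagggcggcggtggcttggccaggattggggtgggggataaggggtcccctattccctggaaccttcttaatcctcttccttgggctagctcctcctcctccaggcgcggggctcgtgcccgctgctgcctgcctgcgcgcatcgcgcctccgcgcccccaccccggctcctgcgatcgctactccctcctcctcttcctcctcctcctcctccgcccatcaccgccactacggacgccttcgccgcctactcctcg
Gabra5 (chr7:57510010-57510309, minus strand): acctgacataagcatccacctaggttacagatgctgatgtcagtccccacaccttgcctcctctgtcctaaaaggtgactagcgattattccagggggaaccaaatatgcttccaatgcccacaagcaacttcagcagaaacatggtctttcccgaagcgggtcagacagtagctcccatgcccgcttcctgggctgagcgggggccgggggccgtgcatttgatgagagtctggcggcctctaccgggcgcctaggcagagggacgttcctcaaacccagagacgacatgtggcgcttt
The Gabrb2 window holds TATAAA 30 bases before the start, a sequence found on either strand in 13.6% of 32851 windows, and the windows of Gabra2 and Gabra5 do not. Over all 11 windows of the 7 genes, 3 held TATAAA, 1 of Gabrb2 and 2 overlapping windows of Gabra3 that hold the same match. GC content was 70.0% in Gabra2, with 25 CpG pairs, 59.0% in the first Gabrb2 window and 56.7% in Gabra5, against a median of 52.7% over all windows. The other Gabrb2 windows had 54.7% and 41.0%. Genes without a call lay on both sides of the median. The first Gabrb1 window had 66.0%, also with 25 CpG pairs, and Gabrg3 had 61.0%. The first Gabra3 window had 43.0% and Gabrg1 38.3%. The letters TGANTCA (bound by AP-1), TGACGTCA (bound by CREB and ATF factors) and TGATGNAA (bound by ATF4 with C/EBP partners) were searched on both strands and occurred in none of the 11 windows, beside 7.81%, 1.79% and 3.97% of all windows.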

How the data were processed

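L3/L4 DRG RNA of 4 uninjured and 5 injured samples from mice was measured on 9 two-colour Agilent arrays (design 014868). The deposited scanner intensities are mean spot and median local background signals per channel, written by Agilent Feature Extraction 10.5.1.1, and the deposited log10 ratios in the same files carry Agilent's own background and dye correction. The table of values processed by the authors holds a log2 ratio of sample to reference per probe, for which the labels name limma.

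In R 4.3.3 with limma 3.58.1, flagged spots were left out (2 to 26 per array), background was corrected by normexp (offset 50), arrays were normalized by loess, and repeated spots of 41174 probes were averaged. The resulting values had slopes of 1.00 to 1.01 against the authors' values. The 31186 probes with Cy5 above background on 4 or more arrays were tested with lmFit and eBayes. Names were updated through RefSeq for 22951 probes by accession and 3109 by older name. Coordinates are the files' (mm7).

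The 7 genes, the other GABA genes and the marker lists (sensory neuron, injured sensory neuron, satellite glia, Schwann cell, macrophage, muscle, red blood cell, fibroblast and vessel, central nervous tissue) were chosen with earlier results of these data known. Named are every probe of the 7 genes, each other GABA gene called except some that are counted but not reported here, and the 5 genes most like the member probe of lowest adjusted p. Alternatives were other background corrections and normalizations, Agilent's ratio, the authors' values, Cy5 alone, other filters and one value per gene. Further ones were slide as a fixed or random block, slide 2 alone, array weights and leaving out each array. A fit without injured replicates 2 and 4 was chosen after seeing the data.

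Precision is limited by the number of arrays. Repeated spots had an SD of 0.0828, and differences between 2 arrays of a group an SD of at least 0.205. Tested on simulated data with 200 changed probes among 31142, the injured against uninjured comparison recovered 89.0% of changes of 1 and 53.0% of 0.5 (log2). In the real data 23.5% of probes were called, and the simulated noise held no slide effect. These shares therefore do not carry over directly to the real comparison.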

Additional observations from a re-analysis of the deposited data

Results flagged for a closer look

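Of 32 groups of arrays over the 16 probes, 1 had a single array far from the others by Dixon's criterion, where chance alone gives about 1 in 20. This was the Gabra5 probe A_52_P143037, at which uninjured replicate 2 read 1.69, below 1.91 to 1.93 on the other uninjured arrays (gap over range 0.923). Without that array the Gabra5 change was 0.40 and the call was lost (adjusted p = 0.0721).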

How the results depend on the processing

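The Gabrb2 probe A_52_P91563 kept its direction and its call under all 23 alternatives run for it, of which the fixed slide block and slide 2 alone give 1 estimate. A_51_P227679 kept its direction under 25 and its call under 22, lost with an offset of 0 (−0.57), Agilent's ratio (−0.05) and within slide 2. The Gabra2 probe A_52_P336171 was called under 19 of 23 and A_52_P446146 under 7, and the Gabra5 probe A_52_P143037 under 13, all with 1 direction. Causes were not tested. In all these counts, other filters leave a probe's own estimate as it was and change only which other probes enter the fit.

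Of all probes, 3523 were called with median centring, 1508 with slide as a fixed block, 134 within slide 2, 4040 without injured replicates 2 and 4 (chosen after seeing the data), and 5377 to 7481 without each array in turn. Called probes of the 7 genes numbered 2 with an offset of 0, with Agilent's ratio or with slide as a fixed block, 3 with median centring or without injured replicates 2 and 4, 1 within slide 2, and 3 to 6 without single arrays. Counted as genes, of which 7 were tested, 1 was called by the brightest probe (Gabrb2) and 2 with averaged probes (Gabrb2 and Gabra2). Called other GABA genes numbered 6, 8, 4, 0 and 7 with median centring, Agilent's ratio, the fixed block, within slide 2 (limma, with 9 at an unadjusted p under 0.05) and without injured replicates 2 and 4, and 9 to 14 without single arrays. Median centring moved the median of all probes by −0.05.

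Differences near 0 changed sign. Gabrg1 A_51_P396883 became −0.13 with no flagged spot left out, −0.0020 with median centring, −0.094 with Agilent's ratio and −0.022 without uninjured replicate 2 (−0.022 to 0.16 without single arrays). Gabra3 A_52_P264550 became 0.10 with an offset of 0 and 1.08 with Agilent's ratio. Gabra5 A_51_P151316 became 0.12 with Cy5 alone, 0.17 with averaged probes and 0.0096 without injured replicates 2 and 4. Gabrg3 A_51_P372497 became −0.15 with slide as a fixed block and within slide 2, and −0.0078 without injured replicates 2 and 4. It ranged from −0.014 to 0.12 without single arrays. A_52_P298373 became 0.071 with Cy5 alone, 0.12 with slide as a fixed block and within slide 2, and 0.045 without injured replicates 2 and 4. Without single arrays it ranged from −0.095 to 0.046.

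Of the pairs, Gabrg1 minus Gabrg3 became −0.18 with no flagged spot left out, −0.019 without background correction, −0.17 with an offset of 0, −0.11 with median centring, −0.52 with Agilent's ratio and −0.058 with Cy5 alone, and ranged from −0.11 to 0.10 without single arrays. Gabra3 minus Gabra5 became 0.024, 0.46 and 1.57 without background correction, with an offset of 0 and with Agilent's ratio, and ranged from −0.15 to 0.066. Gabra2 minus Gabra3 became 0.011 with Cy5 alone. Gabrb1 minus Gabrb2 became −0.12 with Agilent's ratio and passed the threshold with Cy5 alone (0.95) and with averaged probes (0.65), where Gabra2 minus Gabra5 passed as well (−0.58). No paired analysis was possible because replicate numbers follow accession order and pair no samples, and no label ties samples to animals. The reference channel was above background on no array at Gabra2 A_52_P336171, Gabra5 A_52_P143037, Gabrb2 A_52_P91563 and Gabrg1 A_51_P396883, which limits those ratios.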
